A study of Mus musculus with 2 samples.

Results

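Cytotoxic effector CD8 T cells were chosen by their UMIs of Klrg1 and Gzma in a single-cell RNA sequencing experiment on mouse spleen. The levels of these 2 genes in the cells are therefore given as a description only. A cell was taken when it held at least 2 UMIs (unique molecular identifiers, the tags that count single captured mRNA molecules) of Cd8a and Cd8b1 together, at least 2 of Gzma or at least 1 of Klrg1, and none of Cd4, Foxp3, Cd79a, Mki67 and Trdc. In all, 89 of 14372 cells that had 500 or more genes and less than 10% mitochondrial UMIs met the rule, 56 of 7660 in the Prmt5 CKO library and 33 of 6712 in the control library. Klrg1 was detected in 31 of the CKO and 15 of the control effector cells, and 25 CKO and 18 control cells entered through Gzma alone. The CKO library carries Prmt5-CKO and CRE in its title and CD4-Cre+ and PRMT5fl/fl as its genotype, and the control library carries Control and WT in its title. The genotype field of the control sample gives the same 2 alleles, so the groups rest on the titles. All mice were C57BL/6, the cells were sorted as CD3+ from spleen, and no age is given. CD4-Cre deletes floxed genes in developing thymocytes that pass through the stage with both CD4 and CD8, so the Cre also acts in CD8 cells. There is 1 library for each group. Although 3 mice per group stand in the design text, cells cannot be assigned to mice, so no test across replicates was made. Effects of genotype and of the library preparation cannot be told apart. Intervals below are exact 95% intervals for counting error only, and they do not cover differences between mice or between library preparations. Those of gene levels and of their ratios treat each UMI as independent, so they also leave out the spread between cells.

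KLRG1 is an inhibitory receptor for cadherins that marks CD8 T cells far along in effector differentiation. Such cells store granzymes and perforin, carry the chemokine receptor CX3CR1, depend on the transcription factors T-bet (Tbx21) and ZEB2, and have lost the lymph node homing receptor CCR7 that naive cells carry. PRMT5 is the main enzyme for symmetric dimethylation of arginine, on histones and on splicing proteins. The title of the series names Klrg1+CD8+ terminal effector T cells, so the comparison asks how many such cells each library held and what they expressed.

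Gzma, which encodes the tryptase granzyme A, decides most entries into the gate. Gzmb, which encodes granzyme B, is a marker of these cells that the gate does not use. Their RefSeq promoter windows (GRCm38.p6, 250 bases before to 50 after the start of the gene, minus strand, written 5′ to 3′) are shown to compare binding letters of the T-box and ZEB families. Capitals mark AGGTGT, the core of a T-box half-site, and CAGGTG, an E-box that ZEB proteins can bind, on either strand.
Gzma, chr13:113100932-113101231: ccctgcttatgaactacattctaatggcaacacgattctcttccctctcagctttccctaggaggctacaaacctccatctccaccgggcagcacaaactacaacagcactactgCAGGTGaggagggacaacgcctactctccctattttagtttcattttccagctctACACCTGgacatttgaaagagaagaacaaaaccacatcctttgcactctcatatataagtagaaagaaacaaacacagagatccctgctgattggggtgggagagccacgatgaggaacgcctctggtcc
Gzmb, chr14:56262285-56262584: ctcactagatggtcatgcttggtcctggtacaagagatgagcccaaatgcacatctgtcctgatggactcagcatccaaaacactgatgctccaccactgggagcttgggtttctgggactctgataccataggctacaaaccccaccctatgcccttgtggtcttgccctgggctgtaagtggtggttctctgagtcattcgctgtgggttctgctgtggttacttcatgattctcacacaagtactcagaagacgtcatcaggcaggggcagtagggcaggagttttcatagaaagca
The Gzma window holds CAGGTG at position 116 and, on the other strand, at position 172, where it overlaps AGGTGT at position 171. The Gzmb window holds neither run of letters. It follows the RefSeq start of Gzmb, which lies upstream of the start in the GENCODE annotation, so that by GENCODE all its bases precede the gene. AGGTGT occurs in 13.7% and CAGGTG in 20.2% of the 32851 promoter windows of the table, so the matches describe the letters and show no binding. Of the 6 marker genes of these cells, 4 have a window in the table.

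The effector cells carried a total of 392530 UMIs in the CKO library and 267245 in the control library, with a median of 6288 UMIs a cell in CKO and 7576 in control cells. The median share of mitochondrial UMIs was 4.42% in CKO and 4.54% in control effector cells. The libraries shared 11 barcodes, none of them from an effector cell. Prmt5 itself could not be judged in these cells. It had 3 UMIs in the 56 CKO cells (7.64 CPM, that is UMIs per 1000000 UMIs, interval 1.58 to 22.3) and 2 UMIs in the 33 control cells (7.48 CPM, interval 0.906 to 27.0). The other CD8 cells, those in the same CD8 gate that did not meet the Gzma or Klrg1 criterion, had 5.66 CPM of Prmt5 in the CKO library (4.31 to 7.31) and 16.8 CPM in the control library (14.8 to 18.9). The log2 ratio of CKO over control was 0.03 in effector cells (-3.10 to 3.61) and -1.57 in other CD8 cells (-1.999 to -1.15). A 3′ tag need not lie in the deleted exons, which the labels do not name.

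The cells were compared with the markers of T cells and of other cell types. They had been sorted as CD3+ and gated on Cd8a and Cd8b1, so Cd3e does not test their name. Cd3e UMIs were present in 55 of 56 effector cells in CKO and in all 33 in control. Trac, the constant part of the αβ receptor, was present in 54 and 31 of them. Of the naive CD8 markers, Lef1 had a UMI in 69.6% of CKO and 75.8% of control effector cells. Tcf7 had one in 44.6% and 57.6%, and Ccr7 in 10.7% and 33.3%. In other CD8 cells the shares were 95.3% and 94.9% for Lef1, 79.7% and 82.2% for Tcf7, and 70.1% and 80.2% for Ccr7. Ly6c2, a memory marker, had a UMI in 82.1% of CKO and 87.9% of control effector cells. In other CD8 cells it had one in 32.9% and 48.5%. Of 6 NK cell markers, Ncr1 and Klra8 had 0 UMIs in the effector cells of both libraries. Taken as 3 cells of the total, a count of 0 allows a share of cells with an Ncr1 UMI of up to 5.36% in CKO and 9.09% in control cells, and the exact 95% upper limits are 6.38% and 10.6%. Klrb1c, which encodes the receptor NK1.1, had a UMI in 14 of 56 CKO and 6 of 33 control effector cells, whereas the share in other CD8 cells was 0.289% in CKO and 0.410% in control. The NK list as a whole summed to 25 UMIs in CKO and 20 in control effector cells. The γδ T cell list summed to 26 UMIs in CKO and 2 in control effector cells, with Tcrg-C2 giving 17 and 2 of them. A UMI of this list was held by 11 of 56 CKO and 1 of 33 control effector cells. Among other CD8 cells it was held by 3.69% in CKO and 1.49% in control. Trdc is at 0 by the rule, and Trdv4 is at 0 as well. Of the myeloid markers, Cst3 had 46 UMIs in CKO and 18 in control effector cells, whereas Csf1r had 0 in both, Lyz2 had 0 and 1, and C1qa had 1 and 0. Cst3 UMIs were present in 51.8% of CKO and 39.4% of control effector cells, and in 48.0% and 44.5% of other CD8 cells. Of the B cell markers, Ms4a1 was at 0 in both, and Cd79b had 16 UMIs in CKO and 8 in control. Cd79b UMIs were present in 19.6% and 18.2% of effector cells, and in 15.3% and 12.5% of other CD8 cells. The part of γδ transcripts in the comparisons below was not tested. Beside the share, a setting without cells holding a UMI of Fcer1g, Tyrobp, Ncr1 or Klrb1c is given. Cells with a UMI of Itga2 alone stay in that setting. A further setting lets in cells with a Trdc UMI.

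Effector cells made up a larger share of CD8 cells in the CKO library. They were 56 of 1438 gated CD8 cells in CKO (3.89%, 2.95 to 5.03) and 33 of 1984 in control (1.66%, 1.15 to 2.33), a ratio of 2.34 (1.496 to 3.72). Among all cells past the filter they were 0.731% in CKO and 0.492% in control, a ratio of 1.49 (0.9504 to 2.36), and the CD8 gate itself held 18.8% of cells in CKO and 29.6% in control. The larger share among CD8 cells therefore stands beside a CD8 gate that was smaller in the CKO library. Klrg1-positive effector cells were 2.16% of gated CD8 cells in CKO and 0.756% in control, a ratio of 2.85 (1.49 to 5.68). Klrg1-negative effector cells were 1.74% and 0.907%, a ratio of 1.92 (1.004 to 3.73). Within the effector cells, Klrg1 was detected in 55.4% of CKO (41.5 to 68.7) and 45.5% of control cells (28.1 to 63.6), and the interval of the ratio, 0.638 to 2.43, holds 1. At 2000 UMIs a cell the expected share of these same effector cells with a Klrg1 UMI was 28.8% in CKO and 22.8% in control. With the gate itself applied at 2000 UMIs, the share was 35.5% in CKO and 39.5% in control. Among members with a UMI of Gzmb, Cx3cr1, Zeb2 or Ccl4 it was 58.0% and 59.1%. With 1 Gzma UMI as the threshold it was 37.3% and 18.5%, a ratio of 2.02 (1.06 to 4.02). The direction of the Klrg1 share thus changed with the setting.

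The ratio of effector shares depended on where the gate was drawn. It was 2.81 (1.74 to 4.63) with at least 3 Gzma UMIs and 3.30 (2.20 to 5.06) with Trdc-positive cells kept. It was 2.22 (1.31 to 3.81) without cells holding a UMI of the NK genes Fcer1g, Tyrobp, Ncr1 or Klrb1c. It was 1.41 (1.03 to 1.94) with 1 Gzma UMI as the threshold, and 1.48 (0.840 to 2.70) when a cell needed 1000 genes and less than 5% mitochondrial UMIs. The stricter filter left 997 of 1438 gated CD8 cells in CKO and 800 of 1984 in control. In other CD8 cells the median share of mitochondrial UMIs was 4.49% in CKO and 5.23% in control. Both libraries held cells with Y-linked UMIs and cells with Xist, so each mixes sexes. Y-positive cells were 39.3% of CKO and 24.2% of control effector cells. Within Y-positive cells the ratio of effector shares was 3.11 (1.33 to 8.07), and within cells with Xist and no Y-linked UMI it was 1.64 (0.838 to 3.22). The criterion was also met outside CD8 cells, by 1.54% of CKO (1.08 to 2.14) and 0.335% of control CD4 cells (0.123 to 0.728), whose median depths were 5993 and 6092.5 UMIs.

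**Figure D1:**
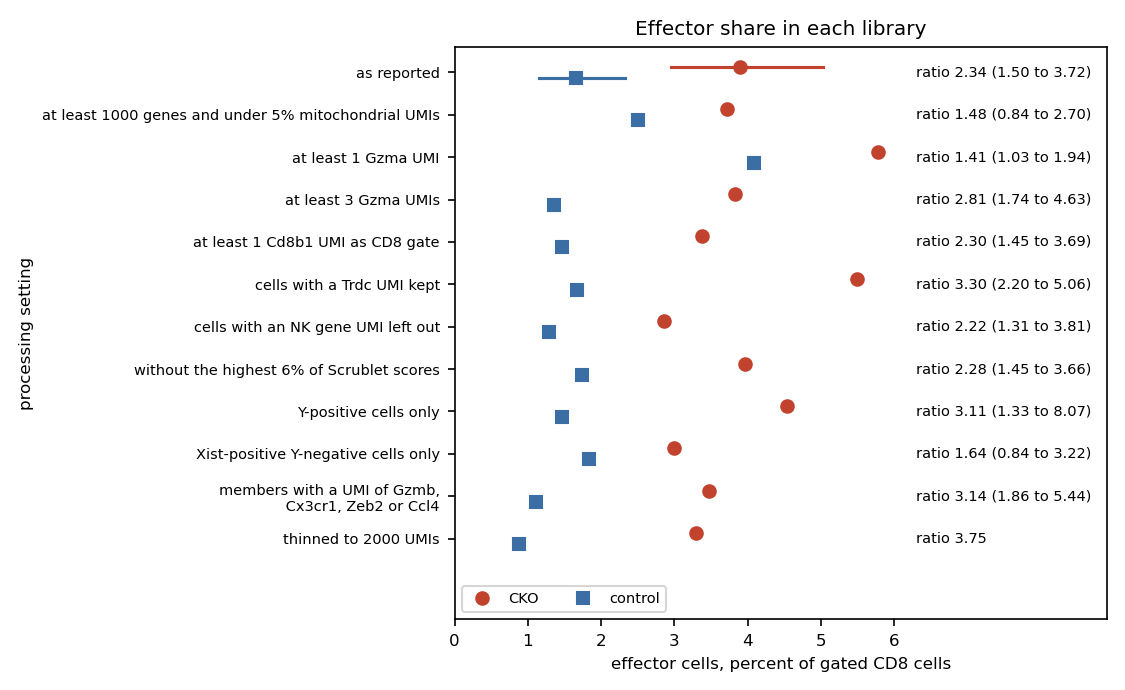
Effector cells as a percent of gated CD8 cells (horizontal axis) in the CKO (circles) and control (squares) libraries under each processing setting (vertical axis), with the ratio and its 95% counting interval at the right where one was computed. Bars on the top row are exact 95% binomial intervals. The CKO point lies right of the control point in every row shown, with ratios between 1.41 and 3.75.

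The cells nearest the Gzma threshold were few inside it and more outside it. Exactly 2 Gzma UMIs and no Klrg1 were held by 1 CKO and 6 control cells, which are just inside, and exactly 1 Gzma UMI and no Klrg1 by 27 CKO and 48 control cells, which are just outside. None of the 7 cells just inside had a UMI of Gzmb or Zeb2, while Ccl5 was absent from the 1 CKO cell and present in 5 control cells. Just outside, Gzmb was found in 2 CKO cells and 1 control cell. The cells just inside are members by the rule and stay in the values below.

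Most effector cells carried several of the 4 defining genes that the rule did not use. These are Gzmb, Cx3cr1, the regulator Zeb2, and Ccl4, which encodes an inflammatory chemokine. At least 2 of the 4 were detected in 45 of 56 CKO (80.4%) and 22 of 33 control effector cells (66.7%), against 4 of 169 and 5 of 479 memory-gated CD8 cells. None of 494 CKO and 487 control naive-gated CD8 cells had 2 of them. Conversely, 6 CKO and 11 control effector cells had none of the 4. Klrg1-positive cells held at least 2 of the 4 in 28 of 31 CKO and 13 of 15 control cells, and Klrg1-negative cells in 17 of 25 CKO and 9 of 18 control cells. With only the 50 CKO and 22 control cells that had at least 1 of the 4, a restriction chosen after the values were seen, the ratio of effector shares was 3.14 (1.86 to 5.44).

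**Figure D2:**
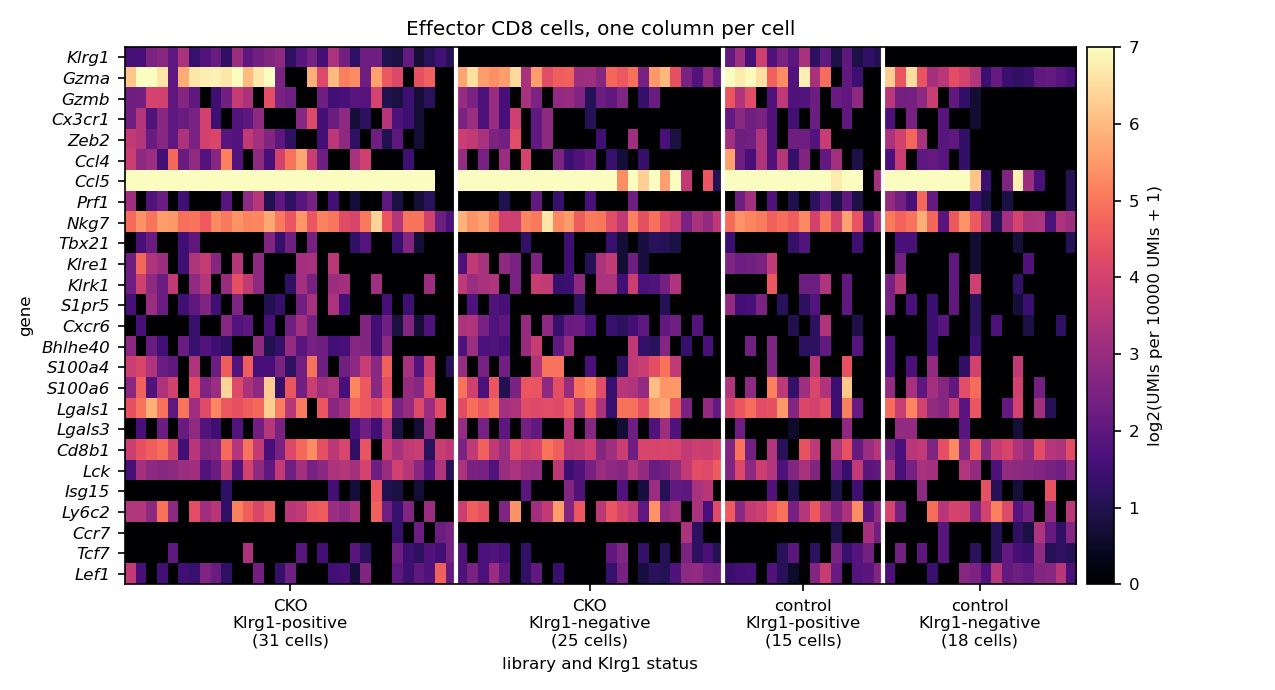
Each column is 1 effector CD8 cell and each row 1 gene, coloured by log2(UMIs per 10000 UMIs + 1), with CKO cells left of control cells, Klrg1-positive left of Klrg1-negative within each, and cells sorted by Gzmb, Cx3cr1, Zeb2 and Ccl4. Cells without these 4 genes sit at the right of each block, 6 of 56 CKO and 11 of 33 control cells.

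Single cells varied widely in each library. Gzma, by which the cells were chosen, had between 0 and 183 UMIs in CKO cells with a median of 20.5, and between 0 and 87 in control cells with a median of 5. Gzmb ran from 0 to 19 UMIs with a median of 2 in CKO cells, and from 0 to 13 with a median of 1 in control cells. Cx3cr1 ran from 0 to 10 with a median of 1 in CKO cells, and from 0 to 4 with a median of 0 in control cells. The ranges overlap for all 3 genes, and the low end is 0 in both libraries. Zeb2 ran from 0 to 9 with a median of 1 in CKO cells, and from 0 to 12 with a median of 0 in control cells. Ccl4 ran from 0 to 38 in CKO cells and from 0 to 30 in control cells, with a median of 1 in both. Ccl5, an abundant chemokine of memory and effector CD8 cells, had a median of 197.5 UMIs in CKO cells (0 to 580) and 120 in control cells (0 to 871). Again the ranges of the libraries overlap for each gene.

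**Figure D3:**
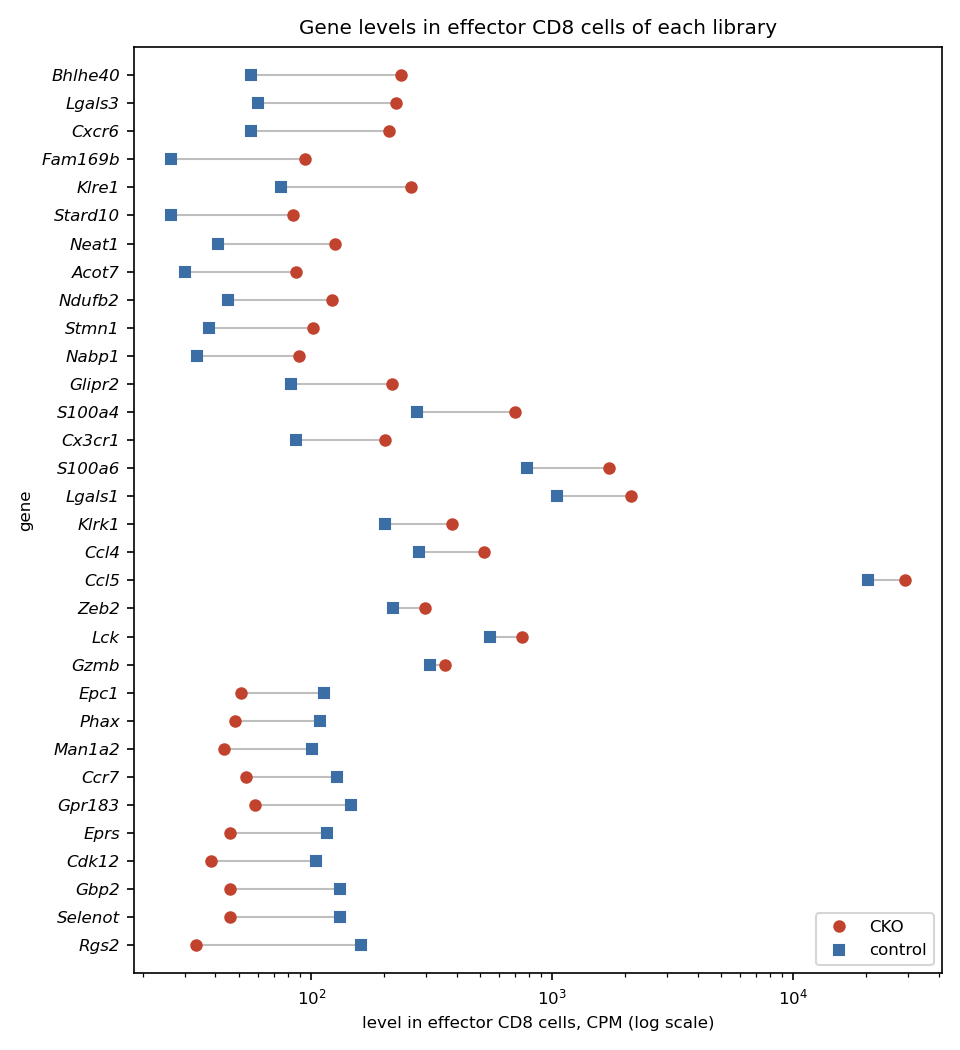
Summed level of named genes in effector CD8 cells in CPM (horizontal log axis), CKO as circles and control as squares, ordered by log2 ratio from the highest ratio at the top. Bhlhe40 is at the top with 234 CPM in CKO and 56.1 in control, and Rgs2 at the bottom with 33.1 in CKO and 161 in control.

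Summed over the cells, Cx3cr1, Ccl4 and Ccl5 were higher in CKO than in control with intervals that leave out 0, and Gzmb, Zeb2 and Prf1 had intervals that hold 0. The spread between cells is not covered by these intervals. Cx3cr1 stood at 201 CPM in CKO and 86.1 CPM in control, a log2 ratio of 1.23 (0.54 to 1.96). Ccl4 stood at 520 and 281 CPM, a log2 ratio of 0.89 (0.50 to 1.29), and Ccl5 at 29119 and 20382 CPM, a log2 ratio of 0.51. Gzmb, at 359 and 311 CPM (0.21, -0.19 to 0.62), and Zeb2, at 296 and 217 CPM (0.45, -0.02 to 0.93), had intervals that hold 0. Prf1, which encodes perforin, had 104 CPM in CKO and 142 CPM in control, with an interval of -1.12 to 0.23. Gzmb UMIs were present in 73.2% of effector cells in CKO and 57.6% in control, and Cx3cr1 UMIs in 57.1% and 36.4%. At 2000 UMIs a cell these shares were 44.4% and 38.3% for Gzmb and 33.5% and 20.02% for Cx3cr1. The same shares in CD4 cells, at median depths of 5993 and 6092.5 UMIs, were 1.06% and 0.335% for Gzmb and 0.7499% and 0.391% for Cx3cr1. In the cells with at least 1 of the 4 genes, the log2 ratio of Ccl5 was -0.06. That restriction keeps all UMIs of the 4 genes themselves by construction, so their ratios in it are not read.

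Over all 2149 genes with at least 40 UMIs, 38 had a CKO level at least 2-fold higher (1.77% of genes) and 25 at least 2-fold lower (1.16%). Among genes whose interval leaves out 0, the 5 with the highest log2 ratios were Bhlhe40, Lgals3, Cxcr6, Fam169b and Klre1. Bhlhe40, a transcription factor of activated and tissue-resident T cells, had 234 CPM in CKO and 56.1 in control cells, a log2 ratio of 2.06 (1.27 to 2.96). It was detected in 36 of 56 CKO and 9 of 33 control cells. Cxcr6, the receptor for CXCL16, had 209 CPM in CKO and 56.1 in control cells, a log2 ratio of 1.90 (1.09 to 2.80). Klre1, a lectin-like receptor of NK and T cells, had 260 CPM in CKO and 74.8 in control cells, a log2 ratio of 1.796 (1.09 to 2.57). Lgals3, which encodes galectin-3, had 224 CPM in CKO and 59.9 in control cells, a log2 ratio of 1.90 (1.13 to 2.77). These genes kept their direction in the cells with at least 1 of the 4 markers, where the log2 ratios were 1.41 for Bhlhe40, 1.69 for Cxcr6, 1.41 for Klre1 and 1.38 for Lgals3. Fam169b had 37 UMIs in CKO and 7 in control cells, a log2 ratio of 1.85. The next 7 were Stard10, Neat1, Acot7, Stmn1, Ndufb2, Nabp1 and Glipr2, with log2 ratios between 1.40 and 1.68. Of these, Neat1 is a nuclear long noncoding RNA and Stmn1 a microtubule regulator of dividing cells.

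The lower genes included a homing receptor of naive cells. Ccr7 had 53.5 CPM in CKO and 127 in control cells, a log2 ratio of -1.25 (-2.11 to -0.42). It turned round in the cells with at least 1 of the 4 markers, where Ccr7 had 8 UMIs in CKO and 2 in control cells (log2 ratio 0.82). Rgs2, a brake on G protein signalling, was the lowest, with 33.1 CPM in CKO and 161 in control cells (-2.28, -3.30 to -1.36), and stood at -2.25 in that restricted set. Selenot, Gbp2, Cdk12, Eprs, Gpr183, Man1a2, Phax and Epc1 had log2 ratios between -1.51 and -1.14. Gbp2, an interferon-induced GTPase, stood at -0.18 in the restricted set. A pair of genes past 2-fold drew over 50% of their UMIs from 1 cell and are not ranked. Ifitm1 had 79 UMIs in CKO and 0 in control cells, 82.3% of them in 1 cell, and Ikzf2 had 13 and 39, 53.8% of them in 1 cell.

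By gene group, 53.3% of the 2149 genes had a log2 ratio above 0, with a median of 0.03. Among S100, annexin and galectin genes, which code for calcium-binding and membrane-associated proteins of activated T cells, 11 of 13 were above 0 and 4 at least 2-fold higher, with a median of 0.56, which was 0.20 in the restricted set. S100a4 had 701 CPM in CKO and 273 in control cells (1.36, 0.98 to 1.75) and had a UMI in 69.6% of the CKO cells against 27.3% of the control cells. The share with an S100a4 UMI in CD4 cells was 6.97% and 7.43%. S100a6 had 1715 CPM in CKO and 782 in control cells (1.13), and Lgals1 2114 and 1048 CPM (1.01). Of 18 killer-lectin-like receptors 4 were measured and all 4 were above 0, Klre1 as given, Klrk1 (NKG2D) at 0.92, Klrd1 (CD94) at 0.84 and Klrc1 (NKG2A) at 0.45. In the restricted set S100a4 stood at 1.14, S100a6 at 0.70, Lgals1 at 0.56 and Klrk1 at 0.35.

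Cytotoxic granule genes were above 0 in 9 of 12, with 0 past 2-fold and a median of 0.35 that came to -0.02 in the restricted set. Gzmk, a granzyme of early effector and memory cells, had 245 CPM in CKO and 157 in control cells (0.64, 0.10 to 1.20). Trafficking receptors and integrins were above 0 in 12 of 16, with a median of 0.30 and -0.11 in the restricted set. The inflammatory homing receptor Ccr2 had a log2 ratio of 0.89 (0.29 to 1.52). Chemokines and cytokines were above 0 in 3 of 4, and effector transcription factors in 7 of 13, with a median of 0.27 that was -0.26 in the restricted set. Among these Tbx21 had 89.2 CPM in CKO and 48.6 in control cells, with an interval of -0.08 to 1.92. Genes of the common gamma chain and JAK-STAT pathway were above 0 in 5 of 7.

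Naive and memory precursor genes were below 0 in 13 of 16, with a median of -0.30. Cd27 stood at -0.72 and Slamf6 at -0.79, whereas Il7r, the IL-7 receptor, stood at 0.65 (0.19 to 1.14), and at 2.17 in the restricted set with 102 UMIs in CKO and 10 in control cells. Interferon response genes were below 0 in 13 of 16, with a median of -0.50 that was -0.13 in the restricted set. In other CD8 cells the median of the interferon list was 0.27. T cell receptor signalling genes were below 0 in 16 of 21, with a median of -0.14 and 0 past 2-fold. Oxidative phosphorylation genes were above 0 in 57 of 72 with a median of 0.17, beside 0.23 in other CD8 cells. Ribosomal protein genes were below 0 in 66 of 81 with a median of -0.11, which was 0.16 in the restricted set.

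The remaining lists showed smaller counts. Antigen presentation genes of MHC class I were below 0 in 12 of 17, immediate early genes in 7 of 13 and cell cycle genes in 3 of 7. Tissue residency genes were above 0 in 2 of 4, p53 targets and BCL2 family genes in 3 of 6, methyltransferases and PRMT5 partners in 2 of 3, and inhibitory receptors in 0 of 2. The survival gene Bcl2a1b had a log2 ratio of 1.34 and the death gene Bax one of 0.65.

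Some differences between the libraries were not the same in effector and other CD8 cells. One was Lck, a Src family kinase that phosphorylates the T cell receptor chains. Lck had 746 CPM in CKO and 550 in control effector cells, a log2 ratio of 0.44 (0.15 to 0.74). In other CD8 cells it had 1295 CPM in CKO and 449 in control, a log2 ratio of 1.53 (1.49 to 1.57). The ratio of these ratios was -1.09 on the log2 scale (-1.38 to -0.79), and in effector cells with at least 1 of the 4 markers the log2 ratio of Lck was 0.08. Ccl4 ran the other way, at 0.89 in effector and -1.08 in other CD8 cells, as did Cxcr6, at 1.90 and -0.81, and Klre1, at 1.796 and -1.04. Lgals1 stood at the same value in both, 1.01 in effector and 1.01 in other CD8 cells (ratio of ratios 0.00, -0.22 to 0.22). S100a6 was at 1.13 in effector and -0.09 in other CD8 cells. Other CD8 cells are not 1 population in the same mix, since memory-gated cells were 11.8% of gated CD8 cells in CKO and 24.1% in control.

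**Figure D4:**
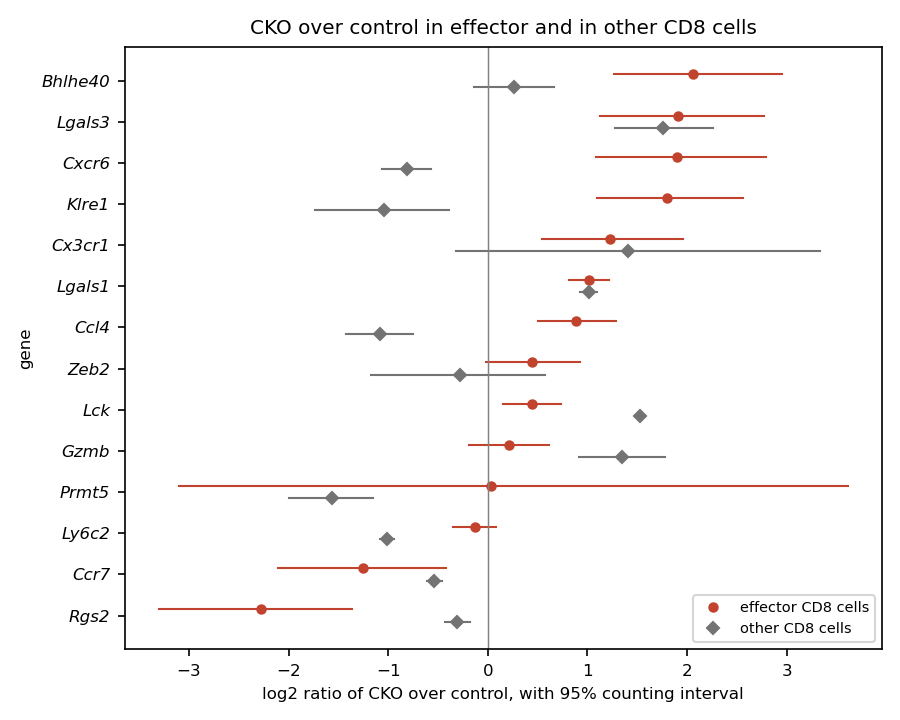
Log2 ratio of CKO over control (horizontal axis) for named genes in effector CD8 cells (circles) and in other CD8 cells (diamonds), with exact 95% counting intervals. Lck lies at 0.44 in effector and 1.53 in other CD8 cells, and Lgals1 at 1.01 in both.

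Against the other CD8 cells of the same library, 117 of 2149 genes were at least 2-fold higher in effector cells of both libraries (5.44%) and 10 at least 2-fold lower (0.465%). The gate used Gzma and Klrg1, so this is a description of the cells it selects. Cx3cr1 had 201 CPM in effector and 0.864 CPM in other CD8 cells of the CKO library, and 86.1 and 0.325 CPM in the control library. Gzmk, S1pr5 and Zeb2 followed, with log2 ratios in CKO of 7.07, 7.69 and 7.34 and in control of 7.54, 6.79 and 6.62. S1pr5 is a receptor for egress from tissues that T-bet and ZEB2 are known to sustain in mice. Against memory-gated CD8 cells, those with a UMI each of Ly6c2 and Il2rb, 96 genes were at least 2-fold higher in both libraries (4.47%) and 7 at least 2-fold lower (0.326%). At the other end of the comparison with other CD8 cells stood Dapl1, at -1.94 in CKO and -2.07 in control, and Ccr7, at -1.97 and -1.26.

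Klrg1-positive cells differed from Klrg1-negative cells in the same direction in both libraries for a small group of genes. Of 2149 genes, 11 were at least 2-fold higher (0.512%) and 7 at least 2-fold lower (0.326%) in both. Klrg1-negative effector cells all hold at least 2 Gzma UMIs, whereas 6 CKO and 3 control Klrg1-positive cells hold fewer. Ccl4 had 790 CPM in Klrg1-positive and 200 in Klrg1-negative cells of the CKO library (log2 ratio 1.98), and 538 and 79.9 CPM in the control library (2.75). A single Klrg1-positive cell held 38 Ccl4 UMIs in CKO and 30 in control, where all effector cells together held 204 and 75. Cx3cr1 had 287 and 100 CPM in CKO (1.52), and 154 and 33.3 CPM in control cells (2.21). S1pr5 stood at 2.22 in CKO and 0.74 in control, and the phosphate transporter gene Slc20a1 at 2.22 and 0.94. Slamf7, a receptor of cytotoxic cells, stood at 0.97 and 2.82 but had a mean of -0.01 at 2000 UMIs a cell, and Dctn2, at 1.17 and 1.47, turned to -1.05. The other genes named by the same rule were Ikzf2, with 53.8% of its UMIs in 1 cell, Nfyb, Ergic3 and Ptpn2. Gzmb was at 0.62 in CKO and 1.83 in control, Tbx21 at 1.51 and 1.04, Zeb2 at 0.91 and 0.36, and Ccl5 at 0.89 and 1.04. Prf1 differed in sign, at 1.804 in CKO and -0.26 in control.

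Interferon-stimulated genes and a few genes of precursor cells lay on the other side. Isg15, a ubiquitin-like protein induced by interferon, had 80.0 CPM in Klrg1-positive and 206 in Klrg1-negative cells of CKO (-1.36), and 51.2 and 306 CPM in control (-2.58). It was detected in 18 CKO and 9 control effector cells, and 22.6% of its UMIs over both libraries came from 1 cell. Isg15 was highest among control effector cells in the Klrg1-negative cells with totals of 12250 and 8897 UMIs. Their levels were 4.36 and 4.41 as log2(UMIs per 10000 UMIs + 1), and the next highest was 2.79. Neither cell held a UMI of Gzmb, Cx3cr1, Zeb2 or Ccl4. The control ratio of Isg15 therefore leans on these cells, and the ratio without them was not tested. Ifit3 was at -0.63 in CKO and -2.76 in control, with 28.8% of its UMIs in 1 cell. Satb1, a chromatin organizer of naive and precursor T cells, had 122 and 317 CPM in CKO, and 137 and 340 CPM in control. Il7r was at -1.01 and -0.68. The other genes named on this side were Ddx3x, Mpc1, Nfkbiz, Rtp4, Idnk, Fosb and Trim30a, of which Ddx3x (0.08), Nfkbiz (0.53) and Rtp4 (0.45) were above 0 at 2000 UMIs a cell. By group, 21.5% of all genes were below 0 in both libraries, beside 11 of 16 interferon genes, 70 of 81 ribosomal protein genes, 9 of 13 immediate early genes and 7 of 16 naive and precursor genes. Above 0 in both were 32.1% of all genes, beside 8 of 13 S100, annexin and galectin genes and 6 of 12 cytotoxic granule genes. Bhlhe40, Cxcr6, S100a4 and Lgals3, which differed between libraries, had log2 ratios of Klrg1-positive over Klrg1-negative cells of -0.05, -0.59, 0.00 and 0.09 in CKO, and 1.36, 0.17, -0.76 and 0.00 in control.

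**Figure D5:**
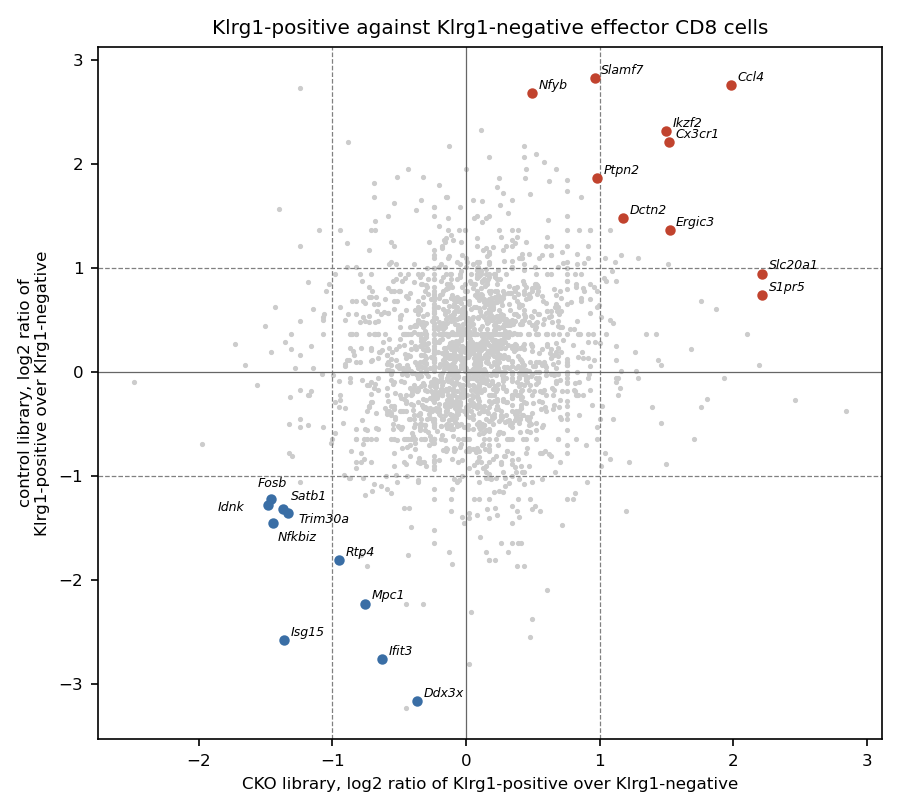
Log2 ratio of Klrg1-positive over Klrg1-negative effector cells for each gene, CKO library on the horizontal and control library on the vertical axis, with named genes coloured by direction and dashed lines at 2-fold. Klrg1 and Gzma are left out because they chose the cells. Ccl4 lies at 1.98 and 2.75 in the upper right, and Isg15 at -1.36 and -2.58 in the lower left.

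The differences between libraries had the same sign on both sides of the Klrg1 split for Bhlhe40, Cxcr6, Klre1 and S100a4, but not for Gzmb. Bhlhe40 had a log2 ratio of CKO over control of 1.43 in Klrg1-positive and 2.84 in Klrg1-negative cells, Cxcr6 1.502 and 2.26, Klre1 1.42 and 2.22, and S100a4 1.84 and 1.07. Gzmb stood at -0.28 in Klrg1-positive and 0.92 in Klrg1-negative cells. Bhlhe40 and Cxcr6 each had only 15 UMIs in all control effector cells, and Bhlhe40 was detected in 16.7% of the 18 control Klrg1-negative cells. The 1 CKO and 6 control cells just inside the Gzma threshold all belong to the Klrg1-negative side. On that side 4 of 25 CKO and 9 of 18 control cells had none of the 4 markers, so the ratios there compare unlike cells. S100a4 was detected in 26 of 31 CKO and 3 of 15 control Klrg1-positive cells, and in 13 of 25 CKO and 6 of 18 control Klrg1-negative cells. At 2000 UMIs a cell these shares were 59.7% and 17.6% in Klrg1-positive cells, and 39.3% and 21.3% in Klrg1-negative cells.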

How the data were processed

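The deposited values are counts, whole numbers of UMIs per gene and barcode, made by the authors from 10x Genomics 3′ V3.1 libraries with no normalization, per the file headers. The submitters' processing notes name Cell Ranger 3.1.0, CASAVA 1.8, Seurat 2.3.4 and build mm10. The members and the gene lists were chosen with earlier results of these data known, so nothing here is independent support for them.

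UMIs were summed per library over the gated cells (56 CKO, 33 control) and given as CPM, a gene's share of the sum scaled to 1000000, for genes with at least 40 UMIs over both libraries. Intervals are exact, Clopper-Pearson for shares, Poisson for levels and conditional binomial for ratios, at 95%. A zero sum was set to a floor of 3 UMIs per group of cells. With 1 library per group no test was made. Named genes are the 12 highest and 12 lowest log2 ratios of CKO over control, and the 10 highest and 10 lowest mean log2 ratios of Klrg1-positive over Klrg1-negative cells with the same sign in both libraries, without genes drawing over 50% of their UMIs from 1 cell in the comparison of CKO with control, and up to 6 members per list. Receptor segments, mitochondrial, ribosomal, sex-linked and predicted genes were not ranked, and an interval holding 0 also kept a gene out. Others named were chosen after their values were seen. Some genes that the rule ranks are not reported here. Memory-gated and naive-gated cells were set by marker UMIs within the other CD8 cells. CD4 cells served as a comparison outside the CD8 gate. Some of them may express these genes themselves, so their shares do not measure free RNA alone. Thinned shares are the expected shares at 2000 UMIs a cell, without 1 shallower CKO effector cell. Scrublet (scanpy 1.11.5) called 0 doublets in both libraries, so it has not worked and doublets remain. Leaving out the highest 6% of its scores was an alternative. Scripts used Python 3.11.15, numpy 2.4.6 and scipy 1.17.1 and were tested on simulated counts.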

Additional observations from a re-analysis of the deposited data

Results flagged for a closer look

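The Gzma or Klrg1 criterion was met by cells outside the CD8 gate more often in the CKO library than in the control library. Among CD4 cells, which the gate leaves out, it was met by 35 of 2267 in the CKO library (1.54%) and by 6 of 1790 in the control library (0.335%). Klrg1 gave 27 and 6 of these cells, and at least 2 Gzma UMIs were held by 12 and 1. Among cells that the CD8 gate lost to a Trdc UMI alone, it was met by 31 of 145 cells in the CKO library (21.4%, interval 15.0 to 29.0) and by 1 of 58 in the control library (1.72%, interval 0.0436 to 9.24). Neither set of cells enters the effector cells as gated. The cells with a Trdc UMI do enter the ratio of 3.30 given with Trdc-positive cells kept. The values stand as measured in 1 library a group.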

How the results depend on the processing

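No paired analysis was possible because each group is 1 library. The restriction to cells with a UMI of Gzmb, Cx3cr1, Zeb2 or Ccl4, and the gene levels (not the share) with Trdc kept, were alternatives chosen after seeing the data. The ratio of effector shares of gated CD8 cells was 1.48 when a cell needed 1000 genes and less than 5% mitochondrial UMIs, 1.41 with 1 Gzma UMI and 3.75 at 2000 UMIs a cell, against 2.34 as reported. The numbers of genes past 2-fold higher and lower in CKO, 38 and 25 as reported, were 18 and 11 in Klrg1-positive cells alone, 166 and 127 with at least 20 UMIs a gene, and 10 and 1 with at least 100. The lower count was 12 in Klrg1-negative cells alone. The higher count was 81 with Trdc kept and 24 with the restriction to cells with a marker UMI. For Klrg1-positive against Klrg1-negative cells, 11 higher and 7 lower as reported, the counts were 56 and 45 at 2000 UMIs a cell and 3 and 2 with at least 100 UMIs a gene. The lower count was 12 with the mean of per-cell CPM and 15 with Klrg1-positive cells held to at least 2 Gzma UMIs. Ccr7 (0.82) and Ccl5 (-0.057) changed sign with the restriction to cells with a marker UMI. Gzmb and Zeb2, whose intervals hold 0, had no fixed sign. Gzmb (0.21 as reported) was -0.045 with per-cell CPM, -0.016 with the stricter cell filter, -0.19 with at least 3 Gzma UMIs, -0.19 without NK-gene cells and -0.28 in Klrg1-positive cells, and Zeb2 (0.45 as reported) was -0.22 with the stricter cell filter. Their signs in the restricted set, -0.41 and -0.18, follow from the smaller UMI totals alone. Slamf7 (-0.0065), Dctn2 (-1.05), Ddx3x (0.078), Nfkbiz (0.53) and Rtp4 (0.45) changed sign at 2000 UMIs a cell. The cause of these changes was not tested. Some settings let in fewer or more genes and cells by construction. At this depth, sums of 3 and 2 Prmt5 UMIs bound its ratio only within -3.10 and 3.61.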

Other observations

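Beta chain variable segments were found in 4 CKO and 6 control effector cells, each in a different segment within its library, so clonal composition could not be read from these libraries. Top2a and Birc5, genes of dividing cells, summed to 10 UMIs in CKO and 5 in control effector cells. Haemoglobin genes summed to 11 UMIs in 4 CKO effector cells and to 0 UMIs in control effector cells.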
